A study of Mus musculus with 8 samples.

Results

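In colon organoids, 594 genomic tiles of 200 bp changed methylation in each of 4 comparisons, out of 53375 distinct tiles that changed in at least 1 of them. They were selected on the measured values: a tile was kept when the authors' deposited tables listed it, as a gain or as a loss, in all 4 comparisons. The tables hold only tiles that differ by at least 20 percentage points with a q-value of at most 0.01. The rule did not use the direction of a change, and the direction varied: 213 of the 594 tiles gained methylation in every comparison, 21 lost it in every comparison, and the other 360 gained in some and lost in others. A tile could be chosen only where all 8 libraries covered it. Every difference given for these tiles is therefore a description of the values that chose them, and no test was made on it.

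The study profiled DNA methylation by reduced representation bisulfite sequencing in organoids, which are epithelial cultures grown in a gel, from the proximal colon of male mice about 40 days old. All organoids came from mice heterozygous for a BrafV600E allele that Cre recombinase switches on, and they formed 2 organoid lines, numbered 1 and 3. In the first comparison, organoids given lentiviral Cre, with BrafV600E active for 5 months and then grown in Base medium, which lacks stem-cell niche factors, were set against organoids given the empty lentiviral backbone, cultured for 5 months and kept in full medium (with Wnt3a, R-Spondin, Noggin and EGF). In the second, empty-vector organoids cultured for 12 months (line 1) or 14 months (line 3) were set against 2-month empty-vector organoids of that line, all in full medium. Every library followed a final 3 weeks in its medium. The oncogene and the medium change together in the first comparison and cannot be told apart. Each comparison sets 1 library against 1 library, so lines 1 and 3 are the only replicates, and the 4 comparisons share no library. The library titled 14 months carries a 2-month tag in another label, and the source name of the line 1 BrafV600E library gives line 3; the titles were followed. No read totals or coverage per tile were used here, so the depth behind each value is unknown. Whether a line descends from 1 cell, or the lines from different mice, is not given in the labels. No expression values were used, so the colon label was not checked against marker genes.

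DNA methylation in mammals is the addition of a methyl group to cytosine, almost always where a guanine follows it (a CpG). Most CpGs of the genome are methylated, whereas CpG islands, dense clusters that often lie at gene starts, are usually free of methylation. CpG islands of developmental regulators held silent by Polycomb proteins are known to gain methylation in ageing tissue and in colorectal cancer, and BRAF-mutant human tumours often carry such gains at many islands at once. Reduced representation bisulfite sequencing cuts DNA at CCGG, so it samples mainly CpG-rich sequence.

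The following 6 tiles are shown because they lie wholly within an annotated start window (250 bases before to 50 after a transcript's start) and stand for 4 direction patterns. Sequences are from RefSeq, build GRCm38.p6, written 5′ to 3′ on the strand of the gene, with every CpG in capitals. The Elovl2 tile is chr13:41220201-41220400, minus strand, and the Aqp5 tile is chr15:99590801-99591000, plus strand; both gained methylation in all 4 comparisons. The tile at the start of Gm52036, which also lies in Btn1a1, is chr13:23464201-23464400, plus strand; it gained with BrafV600E and lost in long culture in both lines. The Slitrk5 tile is chr14:111675801-111676000, plus strand, and did the reverse. The Nrk tile, chrX:138914201-138914400, plus strand, and the Eef1a2 tile, chr2:181157001-181157200, minus strand, went opposite ways in the 2 lines in both comparisons.
Elovl2: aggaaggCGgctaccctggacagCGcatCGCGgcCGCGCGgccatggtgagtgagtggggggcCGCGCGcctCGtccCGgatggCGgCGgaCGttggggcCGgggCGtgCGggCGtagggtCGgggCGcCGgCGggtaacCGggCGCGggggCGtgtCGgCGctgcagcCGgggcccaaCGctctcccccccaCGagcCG
Aqp5: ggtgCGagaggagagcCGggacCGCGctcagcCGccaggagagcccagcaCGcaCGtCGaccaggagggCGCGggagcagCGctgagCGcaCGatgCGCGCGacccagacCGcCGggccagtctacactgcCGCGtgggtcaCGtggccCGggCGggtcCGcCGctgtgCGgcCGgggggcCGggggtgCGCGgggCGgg
Gm52036 and Btn1a1: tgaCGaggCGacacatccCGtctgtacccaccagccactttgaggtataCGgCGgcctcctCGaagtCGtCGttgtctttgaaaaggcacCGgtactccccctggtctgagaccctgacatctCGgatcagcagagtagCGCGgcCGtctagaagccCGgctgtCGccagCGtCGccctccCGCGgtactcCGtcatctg
Slitrk5: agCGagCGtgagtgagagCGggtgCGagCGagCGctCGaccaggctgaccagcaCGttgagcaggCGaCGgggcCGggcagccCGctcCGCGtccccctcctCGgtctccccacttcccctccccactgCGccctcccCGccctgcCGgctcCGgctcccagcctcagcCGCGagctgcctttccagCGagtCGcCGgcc
Nrk: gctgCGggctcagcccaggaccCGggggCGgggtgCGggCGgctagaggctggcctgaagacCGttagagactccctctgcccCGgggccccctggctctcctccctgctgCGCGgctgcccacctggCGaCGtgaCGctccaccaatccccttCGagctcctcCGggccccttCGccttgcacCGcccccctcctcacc
Eef1a2: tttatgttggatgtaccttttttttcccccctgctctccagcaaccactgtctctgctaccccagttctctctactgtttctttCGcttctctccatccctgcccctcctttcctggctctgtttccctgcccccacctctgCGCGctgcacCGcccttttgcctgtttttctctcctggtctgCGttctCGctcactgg

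The Elovl2 tile, at a fatty acid elongase gene, holds 33 CpGs and the Aqp5 tile, at a water channel gene, 31. The Slitrk5 tile, at a neuronal membrane protein gene, holds 24 CpGs, the Gm52036 tile 20, the Nrk tile 16 and the Eef1a2 tile 6. At Elovl2 the authors' deposited tables give differences of 28.8 points in line 1 and 40.7 in line 3 with BrafV600E, and 47.1 and 70.2 in long culture. At Aqp5 the authors' deposited tables give 37.0 and 40.2 points with BrafV600E and 46.5 and 53.5 in long culture. Both tiles gained more in long culture than with BrafV600E, in each line. At the Slitrk5 tile the authors' deposited tables give losses, -41.6 and -74.3, with BrafV600E and gains of 35.9 and 43.2 in long culture. At Nrk, which encodes a kinase on the X chromosome, the authors' deposited tables give 62.6 in line 1 and -64.4 in line 3 with BrafV600E, and -54.3 and 62.2 in long culture. At Eef1a2, a translation elongation factor of nerve and muscle, the authors' deposited tables give 72.8 and -45.9 with BrafV600E and -55.8 and 33.2 in long culture. At these last 2 tiles the lines differ in sign in each comparison, and within each line the 2 comparisons differ in sign as well. A second Elovl2 tile, which abuts the first, likewise gained in all 4 comparisons, with 30.9 and 35.0 points for BrafV600E and 20.4 and 54.8 for long culture in the authors' deposited tables. In line 1 this second tile thus gained less in long culture than with BrafV600E.

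The 594 tiles took 15 of the 16 possible direction patterns. Directions are given below in the order line 1 BrafV600E, line 3 BrafV600E, line 1 long culture, line 3 long culture. Gain in all 4 was the most frequent, at 213 tiles (35.9%, exact 95% interval 32.0% to 39.9%). Next came 86 tiles that gained everywhere but in line 1 long culture, 79 that gained in line 1 BrafV600E and line 3 long culture and lost in the other two, 49 that lost only in line 3 BrafV600E, and 36 that lost with BrafV600E and gained in long culture in both lines. Another 30 lost only in line 1 BrafV600E, 25 gained with BrafV600E and lost in long culture in both lines, and 21 (3.54%) lost in all 4; with a limit of 40 points the share losing in all 4 was 8.70% (4 of 46). By the number of gains from 0 to 4, the tiles number 21, 35, 148, 177 and 213. Intervals for shares are Clopper-Pearson and treat tiles as separate counts; all come from the same libraries, so the intervals cover counting error only.

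**Figure D1:**
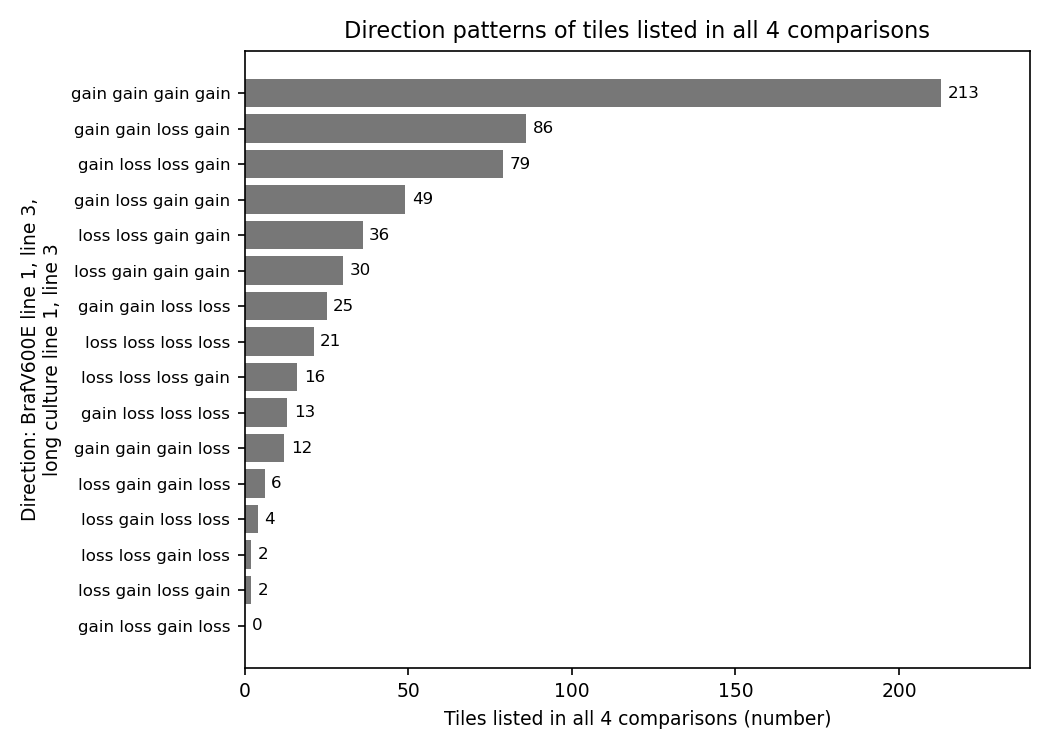
Number of tiles (horizontal axis) for each direction pattern (vertical axis, order line 1 BrafV600E, line 3 BrafV600E, line 1 long culture, line 3 long culture). Gain in all 4 comparisons holds 213 of 594 tiles, loss in all 4 holds 21, and 1 pattern holds none.

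The lines moved the same way at 411 of the 594 tiles with BrafV600E (69.2%, interval 65.3% to 72.9%), against 73.9% of all tiles listed in both lines. In long culture they did so at 391 tiles (65.8%, 61.9% to 69.6%), against 68.5%. The lines moved alike in both comparisons at 295 tiles. Of these, 234 had the same direction in both comparisons and 61 had opposite directions. At 87 tiles the lines moved opposite ways in both comparisons. Within line 1, the 2 comparisons gave the same direction at 317 tiles (53.4%, 49.3% to 57.4%), against 48.9% of all tiles listed in both, and within line 3 at 367 tiles (61.8%, 57.7% to 65.7%), against 51.9%. The chosen tiles belong to those larger sets, and nothing is read from the shares beside them. Across the 594 tiles, Spearman's rho between the lines was 0.225 with BrafV600E and 0.221 in long culture, and between the comparisons it was -0.149 in line 1 and -0.0835 in line 3; tiles are not independent and both values of a tile come from the same position and base composition.

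**Figure D2:**
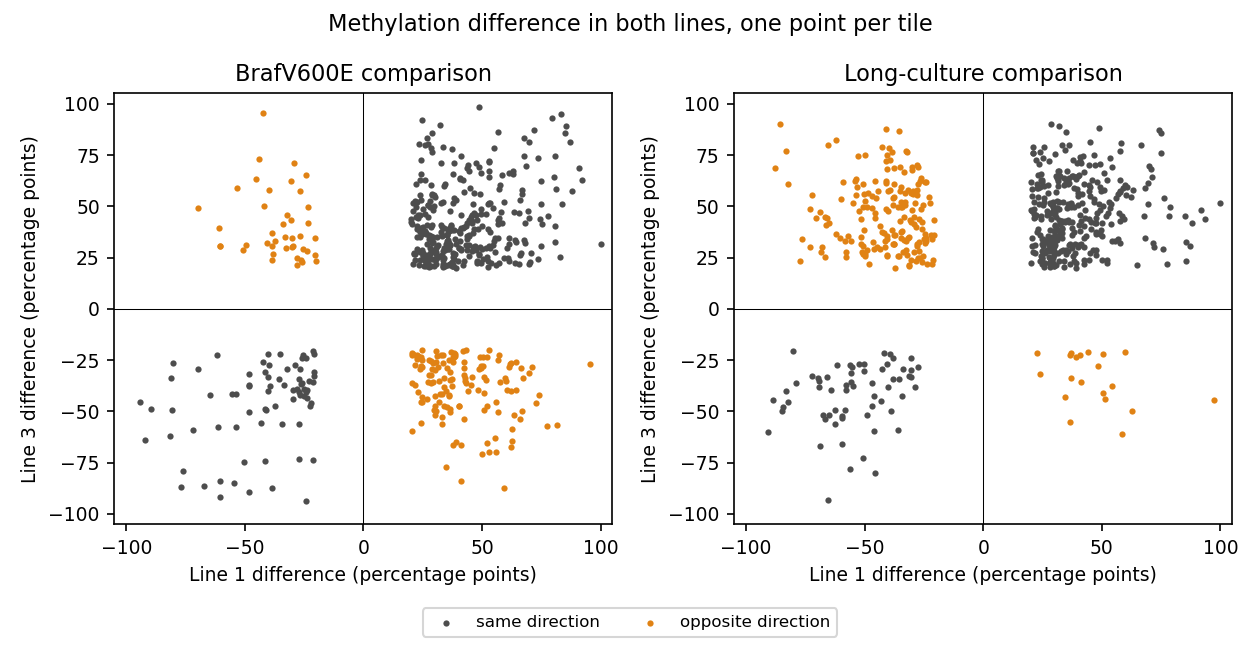
Methylation difference in line 1 (horizontal) and line 3 (vertical), in percentage points, for the 594 tiles, with BrafV600E on the left and long culture on the right. Points in the upper right and lower left moved the same way in both lines: 411 with BrafV600E and 391 in long culture.

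Gains prevailed in each comparison. With BrafV600E, 477 of the 594 tiles (80.3%) gained in line 1 and 378 (63.6%) in line 3, and in long culture 348 (58.6%) gained in line 1 and 511 (86.0%) in line 3. Among all tiles listed in the same comparisons, gains made up 67.5%, 40.4%, 40.9% and 71.9%. Those 4 tables list 28.7%, 56.1%, 15.5% and 40.3% of the 53375 distinct tiles, so the line 1 long-culture table is the shortest. It is also the table most often missing from a tile that the other three list, at 1740 tiles, against 798 for line 1 BrafV600E, 695 for line 3 BrafV600E and 521 for line 3 long culture. Differences of the chosen tiles were somewhat smaller than those of all listed tiles: the median size was 37.9 against 43.1 points in line 1 BrafV600E, 37.3 against 45.6 in line 3 BrafV600E, 38.0 against 43.9 in line 1 long culture and 44.0 against 44.7 in line 3 long culture. The signed differences ran from -94.3 to 100 points in line 1 BrafV600E, from -93.9 to 98.3 in line 3 BrafV600E, from -90.9 to 100 in line 1 long culture and from -93.3 to 90.3 in line 3 long culture. The widest gain was at Glra1, a glycine receptor gene, at which the authors' deposited tables give 100, 31.9, 100 and 51.8 points.

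The smallest of a tile's 4 differences had a median of 26.6 points over the 594 tiles, ran from 20.0 to 62.5, and was 40 or more at 46 tiles and 50 or more at 14. Just inside the 20-point limit were tiles at Adamts3, a procollagen-processing protease gene (20.0 in line 1 long culture), Hoxa13, a homeobox gene of the hindgut and limb (-20.0 in line 3 BrafV600E), and 1110032F04Rik (20.0 in line 1 long culture), all from the authors' deposited tables. Tiles just outside the limit are not listed in the tables and have no value here. The 3 tiles farthest inside it took 3 different patterns. At Meis2, a homeobox gene, the authors' deposited tables give 61.4, 66.3, 69.7 and 69.4 points. At Podxl2, a sialomucin gene, the authors' deposited tables give 62.1, -67.4, -85.7 and 90.3. At Eml1, a microtubule-binding protein gene, the authors' deposited tables give 75.0, 62.5, -68.9 and -66.7.

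Tiles that gained in all 4 comparisons included several at developmental genes. Sox17, a transcription factor of endoderm that also dampens Wnt signalling, held 5 such tiles, more than any other gene. Its first 3, at chr1:4491801-4492600 within the gene, had mean gains of 61.2 points in line 1 and 49.0 in line 3 with BrafV600E, and 59.1 and 57.7 in long culture. Its other 2, at chr1:4493201-4493800, had mean gains of 49.6, 46.1, 43.4 and 55.1. The lowest of the 20 values at Sox17 was 28.3 points in the authors' deposited table of line 3 with BrafV600E, and the highest was 74.4 in the same table. All 20 values were gains, and both extremes came from line 3 with BrafV600E.

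Cyp26b1, which encodes an enzyme that breaks down retinoic acid, held 3 tiles at chr6:84585201-84586200 with mean gains of 54.9, 54.7, 40.5 and 60.1 points. Npr3, the clearance receptor for natriuretic peptides, held 3 tiles at chr15:11905201-11905800 with mean gains of 43.9, 39.0, 33.7 and 44.8. Sp8, a transcription factor of limb and brain, held 3 tiles at chr12:118848601-118849800 with mean gains of 31.6, 30.9, 28.0 and 68.8. At Sp8 line 3 long culture stands above the other 3 comparisons, which lie close together. A region with no RefSeq gene within 1 kb, chr6:52253001-52253800, which lies between Hoxa11 and Hoxa13, held 3 tiles with mean gains of 31.3, 25.8, 51.3 and 59.3. Lbx1, a homeobox gene of muscle and spinal cord, held 3 separate tiles that all gained, with means of 32.5, 35.3, 36.9 and 39.7.

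Smaller groups of tiles behaved in the same manner. A pair at chr16:94083601-94084000, in the non-coding gene Gm31175 and more than 1 kb from any protein-coding gene, had mean gains of 57.5, 51.4, 48.1 and 44.5 points. Kcnb2, a voltage-gated potassium channel gene, held 2 tiles at chr1:15286801-15287200 with mean gains of 78.0, 44.6, 39.4 and 47.8. Thbs4, which encodes a thrombospondin of the extracellular matrix, held 2 tiles at chr13:92794601-92795000 with mean gains of 38.9, 51.3, 43.8 and 44.1. Ttc34 held 2 tiles at chr4:154856001-154856600 with mean gains of 44.6, 41.3, 35.7 and 56.5. Among these 4 pairs the lowest mean gain was that of Ttc34 in line 1 long culture.

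Some regions that gained on average held a tile that lost methylation. At Hoxd11, a homeobox gene, the 3 tiles at chr2:74681201-74682200 averaged 30.1, 21.6, 11.2 and 66.2 points. The first of them, at chr2:74681201-74681400, stood apart from the other two in the authors' deposited tables, with 42.9, -34.0, -72.3 and 55.7. At Adamts3 the 3 tiles at chr5:89883201-89884000 averaged 31.0, 25.7, 9.73 and 65.0, and 1 of them had -35.7 in line 1 long culture in the authors' deposited table. In line 3 long culture every tile of both regions gained. Gjb6, a gap junction gene, held 3 tiles within 500 bp of one another that all gained with BrafV600E and in line 3 long culture and lost in line 1 long culture, by -30.3, -31.4 and -34.9 points in the authors' deposited table.

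Loss in all 4 comparisons was seen at 21 single tiles, none of which had a second such tile within 500 bp. The leading one, chr4:143642601-143642800, has no RefSeq gene within 1 kb, and the authors' deposited tables give -71.7, -59.1, -59.5 and -65.8 points. At Gcnt2 (chr13:40918601-40918800), a glycosyltransferase of blood group I antigen, the authors' deposited tables give -53.9, -57.6, -84.4 and -48.1. At Dusp7 (chr9:106370001-106370200), a phosphatase that switches off ERK, the authors' deposited tables give -53.6, -41.7, -56.3 and -78.3. Loss at the Dusp7 tile was thus largest in line 3 long culture, and at the Gcnt2 tile in line 1 long culture. Signalling, cilia and lineage genes followed. At Sh2b3 (chr5:121819601-121819800), an adaptor that restrains cytokine signalling, the authors' deposited tables give -61.5, -57.5, -69.4 and -38.2. At Dnah9 (chr11:66047601-66047800), a dynein of cilia, the authors' deposited tables give -43.1, -55.7, -34.2 and -42.5. At Ebf1 (chr11:44801001-44801200), a transcription factor of B cells, the authors' deposited tables give -33.6, -37.2, -69.2 and -35.0. Tiles more than 1 kb from any RefSeq gene at chr15:59784001-59784200 and chr10:55120001-55120200 lost in every comparison, with values from -34.1 to -51.7 in the authors' deposited tables.

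In 61 tiles both lines moved together in each comparison but the comparisons were opposite. Of these, 25 gained with BrafV600E and lost in long culture. Eml1 (chr12:108503201-108503400), given above, leads them. At Sparcl1 (chr5:104109201-104109400), a matrix glycoprotein gene, the authors' deposited tables give 48.8, 98.3, -58.3 and -49.6 points. At the tile in Btn1a1, a milk fat protein gene, whose sequence is printed above, the authors' deposited tables give 52.9, 64.1, -82.5 and -45.3. At Trib3 (chr2:152338001-152338200), a stress-induced pseudokinase, the authors' deposited tables give 44.1, 70.0, -65.0 and -51.6. Kcng2, a potassium channel subunit on chromosome 18 (chr18:80336001-80336200), had 57.1, 58.5, -65.4 and -93.3 in the authors' deposited tables, and an intergenic tile at chr11:70340601-70340800 had 66.7, 58.0, -90.9 and -60.0. All 6 of these leading regions are single tiles.

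The reverse pattern, loss with BrafV600E and gain in long culture in both lines, was seen at 36 tiles. Lratd1 (chr12:14150201-14150600) held 2 of them, with mean differences of -44.2, -39.0, 71.0 and 53.7 points. Gpr63 (chr4:24966601-24967000), an orphan G protein-coupled receptor gene, held 2, with means of -71.3, -36.0, 81.2 and 58.2. Ranbp17 (chr11:33513201-33513800), a nuclear transport gene, held 2, with means of -54.4, -90.6, 25.2 and 37.7. In each line the gain was larger than the loss at Gpr63 and Lratd1, and smaller at Ranbp17. At Rangrf (chr11:68973601-68973800) the authors' deposited tables give -94.3, -45.3, 39.5 and 58.3. At Map1b (chr13:99516401-99516600), a microtubule-associated protein gene of neurons, the authors' deposited tables give -39.3, -37.7, 49.3 and 70.5. Zeb1, a transcriptional repressor of epithelial genes, had -50.5, -74.5, 45.2 and 39.0 in the authors' deposited tables at chr18:5592001-5592200.

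At 79 tiles, line 1 gained with BrafV600E and lost in long culture while line 3 lost with BrafV600E and gained in long culture. Pdzrn3 (chr6:101377801-101378200), a ubiquitin ligase gene, held 2 of them, with mean differences of 44.0, -45.6, -42.3 and 52.1 points. Eef1d and Tigd5, which overlap at chr15:75910401-75910800, held 2, with means of 54.1, -58.6, -28.4 and 38.4. Stard6, with 4930503L19Rik, at chr18:70472201-70472800 held 2, with means of 36.6, -51.7, -45.8 and 64.3. Every tile of these 3 regions had the sign of its region in each comparison. Dgkk, a diacylglycerol kinase gene on the X chromosome, held 2 tiles at chrX:6779601-6780000, with means of 39.9, -73.5, -18.5 and 77.9, of which 1 gained in line 1 long culture. The mirror pattern, loss then gain in line 1 and gain then loss in line 3, was seen at 6 tiles. Among them was Cacna1g, a T-type calcium channel gene used in human colorectal cancer as a marker of the CpG island methylator phenotype, with -38.3, 26.9, 51.3 and -43.7 in the authors' deposited tables. The others named by the ranking were Itsn1 (-33.9, 41.4, 48.4 and -28.0), Tmem100 (-23.8, 28.2, 34.5 and -43.2) and Patz1 (-42.2, 95.3, 40.6 and -22.6) in the authors' deposited tables. Another 2 tiles had loss in line 1 and gain in line 3 in both comparisons, at Frmpd3 (-38.5, 37.0, -25.5 and 50.5 in the authors' deposited tables) and at chr12:20815801-20816000, in the start window of the non-coding gene 1700030C10Rik (-69.6, 49.3, -41.3 and 30.3).

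**Figure D3:**
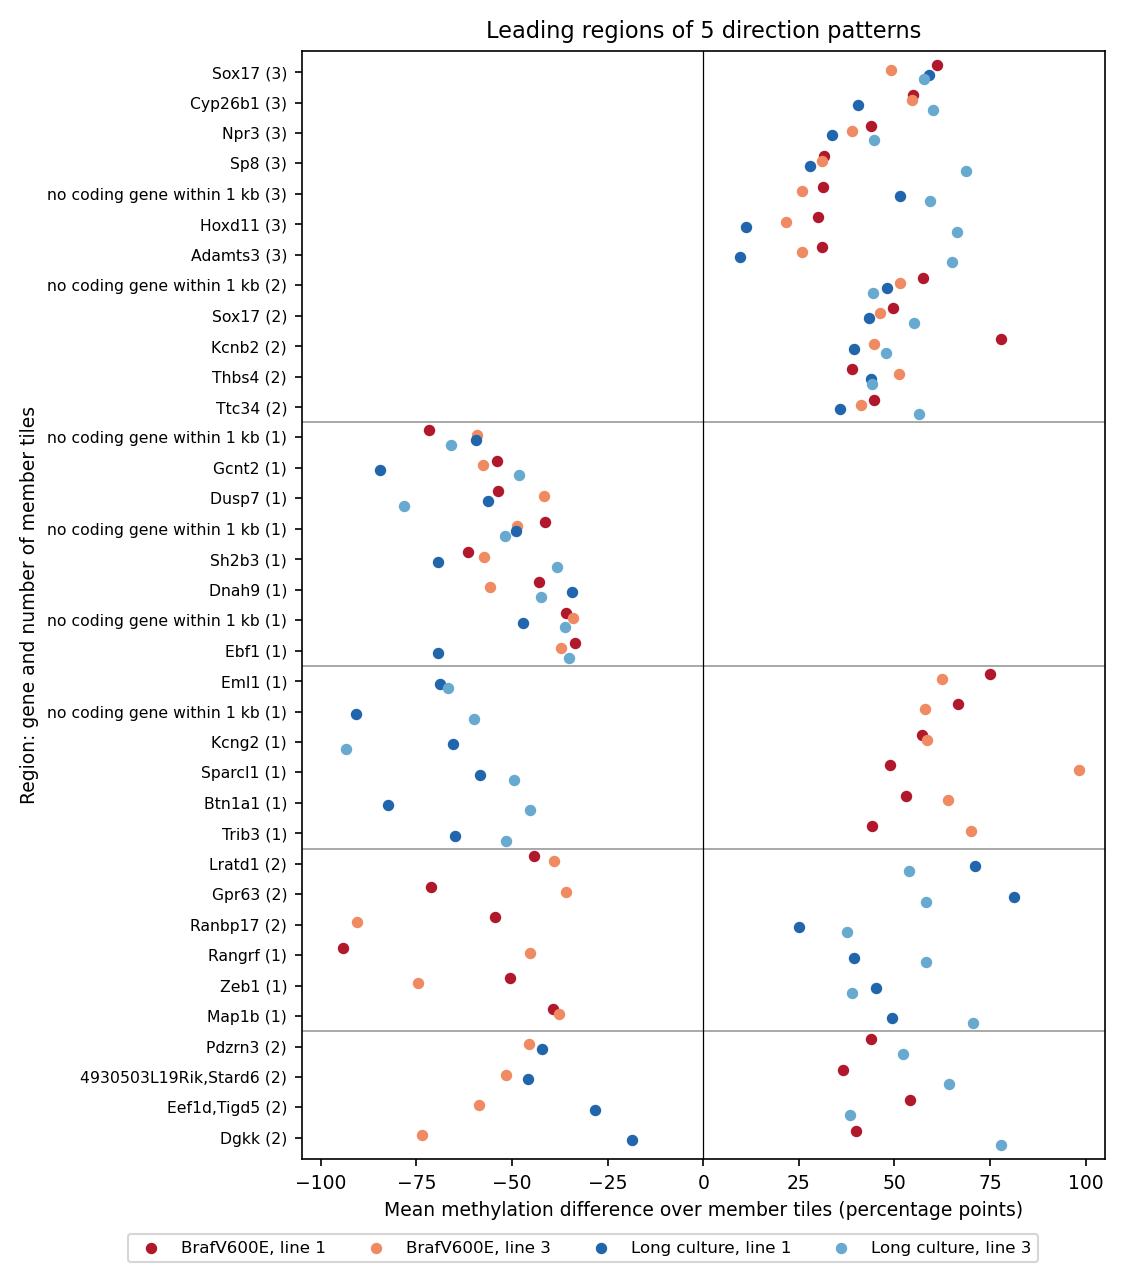
Mean methylation difference (horizontal, percentage points) over the member tiles of each leading region (vertical, gene and number of tiles in brackets) in the 4 comparisons, with grey lines between 5 direction patterns. From the top: gain in all 4, loss in all 4, gain with BrafV600E and loss in long culture, the reverse, and opposite lines; Hoxd11 and Adamts3 lie nearest to 0 in line 1 long culture, at 11.2 and 9.73 points.

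Because a methylation level lies between 0% and 100%, a large difference limits the level that each library can have had. A tile that gained 62.1 points started at 37.9% or less. This arithmetic, which adds no measurement, shows at which tiles the measured levels of libraries that no table compares must have differed. The counts below are of measured levels and include any gap above 0, such as 0.113 points between the 2-month controls at Sfrp2. Sampling error was not allowed for, since depth is unknown, so a small gap need not be a true difference. The same counts over all listed tiles are not given here, so none is read as particular to the chosen tiles. The 2-month controls of the lines must have differed at 52 of the 203 tiles whose long-culture directions were opposite, by a median of at least 12.6 points and by at least 50 points at 3 of them. The 5-month controls must have differed at 36 of the 183 tiles opposite with BrafV600E, by at least 16.7 at the median and at least 46.8 at most. Within a line, the 2-month and 5-month controls must have differed at 69 of 277 tiles in line 1 and 71 of 227 in line 3, where the 2 comparisons had opposite directions. Among the 79 tiles of the pattern shown by Pdzrn3, the 2-month controls of the lines must have differed at 25, the 5-month controls at 25, and both pairs at 9.

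Podxl2 (chr6:88849801-88850000) gave the widest such gap between the 2-month controls, at least 76.0 points. In line 1, its level must have been at least 85.7% at 2 months, at most 37.9% in the 5-month control, at least 62.1% with BrafV600E and at most 14.3% at 12 months. In line 3 it must have been at most 9.67% at 2 months, at least 67.4% in the 5-month control, at most 32.6% with BrafV600E and at least 90.3% at 14 months. The line 1 tile was thus high at 2 months and low in later empty-vector cultures, and line 3 the reverse, with the BrafV600E library on the side of the 2-month control in each line. Ccdc39 (chr3:33843801-33844000), a gene of cilia assembly, had the same order: in line 1 at least 88.0% at 2 months, at most 22.5% in the 5-month control, at least 77.5% with BrafV600E and at most 12.0% at 12 months. In line 3 the Ccdc39 tile was at most 31.3% at 2 months, at least 57.1% in the 5-month control, at most 42.9% with BrafV600E and at least 68.7% at 14 months. One Dgkk tile (chrX:6779801-6780000) was at least 62.2% in line 1 and at most 17.5% in line 3 at 2 months, and at most 40.5% and at least 87.3% in the 5-month controls. At Satb1 (chr17:51833001-51833200), a chromatin organizer gene that gained everywhere but in line 1 long culture, the 2-month level was at least 65.4% in line 1 and at most 20.3% in line 3. Ankrd6 (chr4:32864001-32864200) had the widest gap between 2-month and 5-month controls of line 3, at least 71.4 points.

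**Figure D4:**
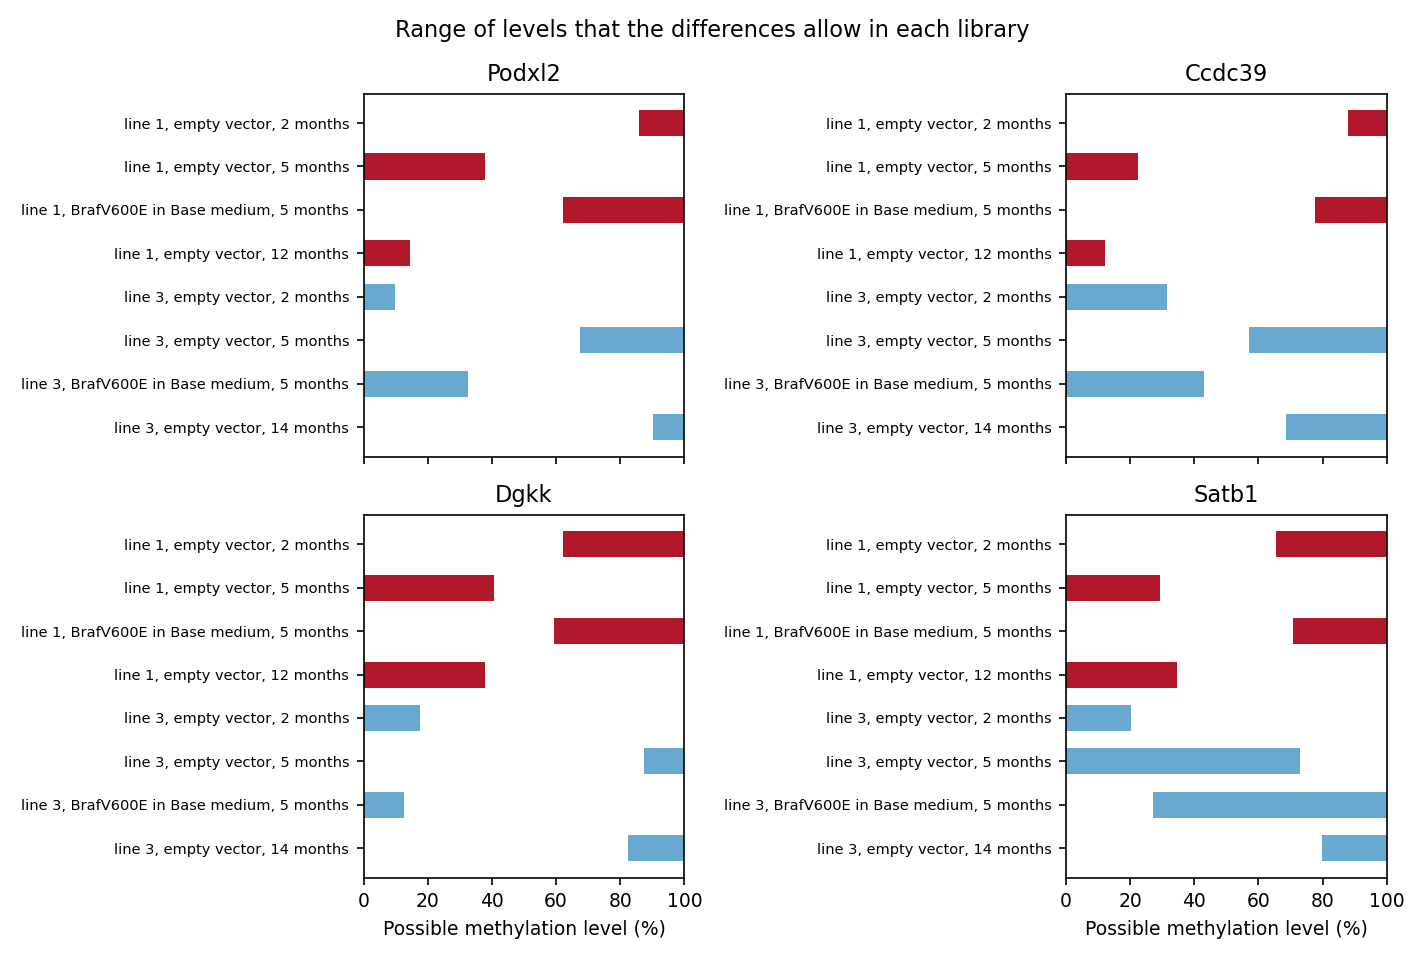
Range of methylation levels (horizontal, percent) that the 4 differences allow in each of the 8 libraries (vertical) at single tiles of Podxl2, Ccdc39, Dgkk and Satb1; red bars are line 1 and blue bars line 3. At Podxl2, Ccdc39 and Dgkk the bars of the 2 lines do not overlap for the 2-month control, the 5-month control, the BrafV600E library or the long-culture library.

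The 594 tiles formed 540 regions when tiles within 500 bp were joined, of which 494 were single tiles, 38 held 2 tiles and 8 held 3. Of the 46 regions with more than 1 tile, 39 had a single direction pattern. Genes counted here are the 21896 protein-coding genes of the RefSeq GRCm38.p6 annotation and 7 genes of other kinds that a gene list names. Such a gene contained or lay within 1 kb of 483 tiles, 425 genes in all. Of the other 111 tiles, 39 lay in or within 1 kb of a RefSeq gene of another kind, and 72 were farther from every RefSeq gene. Of these genes, 67 held 2 or more tiles and 8 held 3 or more: Sox17, Hoxd11, Adamts3, Cyp26b1, Gjb6, Lbx1, Npr3 and Sp8. Whether a tile is exonic or intronic was not used here.

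Gene groups were described by the share of their genes with a chosen tile, beside the same share over all genes. Of all 9424 genes with any listed tile, 425 (4.51%) had a chosen one. Each group is a chosen list that need not be complete, so its counts cover only the genes on it. A gene with more listed tiles has more chances to hold a chosen one. This was not allowed for, so the shares are not read as enrichment. Developmental transcription factors had 53 of 249 (21.3%), with 70 tiles, 36 of them gaining in all 4 comparisons and none losing in all 4. Over all genes, 191 of 483 tiles gained in all 4. Examples besides Sox17 and Lbx1 are Bnc2, a zinc finger factor with mean gains of 46.7, 34.8, 38.1 and 52.1 points over 2 tiles, and Hoxd11, given above. Among regulators of intestinal identity, 2 of 24 genes (8.33%) had a chosen tile. Gata4, a factor of the proximal gut, gained 28.6, 31.8, 47.6 and 70.8 points on average over 2 tiles, with the larger values in long culture in both lines. Pax6, a factor of endocrine cells and eye, had 23.7, -29.5, 72.1 and 30 in the authors' deposited tables.

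Among Wnt antagonists and negative regulators 4 of 35 genes (11.4%) had a chosen tile, and among Wnt ligands and receptors 1 of 38 (2.63%), beside 4.51% of all genes; the lists were not tested against each other. Hic1, a transcriptional repressor silenced in cancers, had -53.2, 58.9, 29.0 and 30.9 points in the authors' deposited tables. Notum, a deacylase that inactivates Wnt proteins, had -26.7, 57.3, 25.1 and 33.8 in the authors' deposited tables. Sfrp2, a secreted Wnt binder, had 38.7, 26.9, -50.6 and 49.5 in the authors' deposited tables. Each of these 3 genes thus lost methylation in 1 of the 4 comparisons, always in line 1. The remaining gene of the 4 is Sox17, given above, whose tiles all gained. They are the 5 of this list's 8 tiles that gained in all 4 comparisons. Ror2, a Wnt receptor, held 2 tiles with mean differences of -48.6, -42.6, -40.7 and 38.8. Among markers of the methylator phenotype and of colorectal cancer, 6 of 48 genes (12.5%) had a chosen tile. Of their 7 tiles, 4 gained in all 4 comparisons, including 2 at Gata4, given above, which is also on this list. Bnc1 gained 21.7, 23.9, 28.1 and 38.2 in the authors' deposited tables, and Cdo1, a cysteine-degrading enzyme, had 85.3, 89.0, -50.3 and -27.0.

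In the MAPK pathway, which BrafV600E drives, 4 of 51 genes (7.84%) had a chosen tile, beside 4.51% of all genes. Erbb4, a receptor tyrosine kinase, held 2 with mean differences of 50.8, 22.7, -34.9 and 57.2 points. Egr3, a factor induced by growth signals, gained 42.4, 23.4, 30 and 21.1, and Mapk4, an atypical MAP kinase, gained 40.7, 63.5, 30.1 and 40.2 in the authors' deposited tables. Dusp7 was the only one of the 4 genes that lost methylation throughout. On the list of TGF-beta and BMP genes, 4 of 56 (7.14%) had a chosen tile. Bmp4, a growth factor, gained 52.4, 42.9, 33.0 and 46.0 on average over 2 tiles, and Gdf7 gained 23.8, 63.0, 32.0 and 23.3 in the authors' deposited tables. Gdf6 had 36.0, 29.3, 22.7 and -21.6 in the authors' deposited tables, and the 2 tiles of Ltbp4, which binds latent TGF-beta, took 2 different patterns. Nodal, a TGF-beta family ligand outside that list, had 43.1, -20.2, -49.8 and 26.6 in the authors' deposited tables. Dner was the only 1 of 20 Notch receptors and ligands (5%) with a chosen tile, with 28.2, 29.8, 24.2 and 62.7 in the authors' deposited tables.

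Among genes of DNA methylation and Polycomb, 3 of 22 (13.6%) had a chosen tile, beside 4.51% of all genes. Uhrf2, a relative of the maintenance methylation factor Uhrf1, held 2 tiles with mean gains of 64.2, 45.2, 53.4 and 33.7 points. Tet1, which oxidises methylcytosine, had 43.6, 28.7, -40.4 and 47.8 in the authors' deposited tables, and Phc2, a Polycomb protein, had 31.3, -28.5, -37.0 and 36.2. Only Uhrf2 gained in all 4 comparisons. Ion channels and neurotransmitter receptors had 20 of 206 genes (9.71%), with 22 tiles of which 8 gained in all 4. Collagen and matrix genes had 6 of 86 (6.98%) and axon guidance genes 5 of 64 (7.81%). Zinc finger protein genes had 8 of 149 (5.37%), with 6 of 8 tiles gaining in all 4. The list of imprinted genes had 2 of 49 (4.08%), Asb4 and Klf14. Zdbf2, an imprinted gene outside that list, held tiles that gained in all 4 comparisons. The 2 of 16 epithelial-mesenchymal regulators (12.5%) were Zeb1, given above, and Snai2, with -23.8, -43.7, -46.7 and 32.5 in the authors' deposited tables. Cadherin, claudin and tight junction genes had 1 of 47 (2.13%), Cdh11. On some lists no gene had a chosen tile. Of their genes with a listed tile, 15 were of intestinal stem cells, 14 of differentiated colon cells and 13 of cell cycle inhibition and senescence. Another 29 were germline genes and 43 clustered protocadherins. Beside 4.51% of all genes, a count of 0 in lists this short is not read as a result. Terb1, M1ap and Ddx43, germline genes outside that list, did hold chosen tiles. Of 26 markers of cell types other than epithelium, 3 (11.5%) had a chosen tile: Elavl4 and Kdr, with mixed directions, and Pecam1, which had -80.5, -26.7, -40.3 and -38.2 in the authors' deposited tables.

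The position of a tile was not part of the rule and changed with the number of comparisons that listed it. With the same, almost wholly protein-coding, set of genes, tiles within 1 kb of a gene's end (either end) made up 18.8% of tiles listed in 1 comparison, 29.2% in 2, 39.2% in 3 and 44.4% (264 of 594, interval 40.4% to 48.5%) in all 4. Tiles inside a gene made up 55.9%, 63.0%, 70.9% and 75.8%, and tiles over 1 kb from any of these genes 40.2%, 32.0%, 23.4% and 18.7%. Another listed tile lay within 500 bp of 33.4%, 53.3%, 70.9% and 78.5%. The share at gene ends varied between patterns: 46.5% of the 213 tiles gaining in all 4, 54.7% of the 86 gaining everywhere but in line 1 long culture, 50.6% of the 79 like Pdzrn3 and 55.6% of the 36 losing with BrafV600E and gaining in long culture. It was 14.3% (3 of 21, interval 3.05% to 36.3%) of those losing in all 4 and 16% (4 of 25, 4.54% to 36.1%) of those gaining with BrafV600E and losing in long culture. The authors' p-values, given next, moved with the same number of comparisons, and their part in these shares was not tested.

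Differences of equal size carried smaller p-values in the tiles that more comparisons listed. These p-values took part in the choice, since each listing requires a q-value of at most 0.01, so nothing is read from this. For differences of 30 to 40 points, the median of -log10 of the authors' p-value was 4.43 in tiles listed in 1 comparison, 5.65 in 2, 6.90 in 3 and 8.57 in all 4. Within each comparison the chosen tiles had medians of 8.08, 11.3, 7.03 and 9.95, against 5.04, 4.97, 4.86 and 5.85 for the other listed tiles. Read counts were not used here, so the part of depth in these values was not tested.

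**Figure D5:**
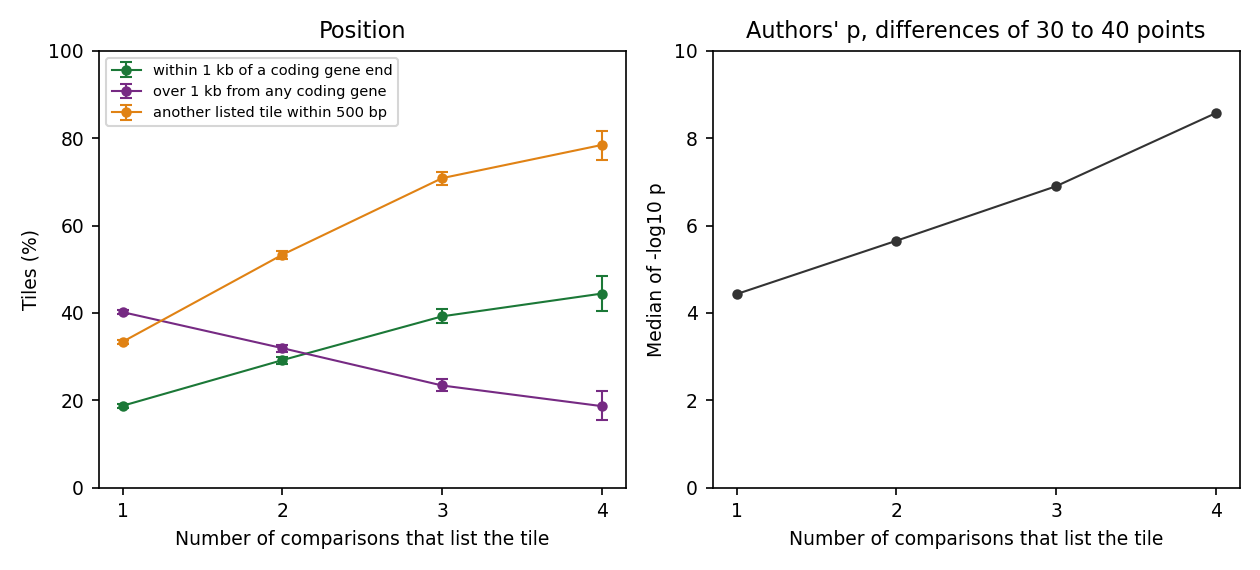
Left: share of tiles (percent) at 3 kinds of position, relative to genes that are almost all protein-coding, with exact 95% intervals, by the number of comparisons that list the tile. Right: median of -log10 of the authors' p-value for differences of 30 to 40 points, rising from 4.43 to 8.57. Those p-values took part in choosing the tiles.

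Of the 594 tiles, 28 lay wholly within an annotated start window and could be read as sequence. They held 5 to 39 CpGs with a median of 21, and the 13 that gained in all 4 comparisons held 11 to 39 with a median of 31. Tiles listed in 3, 2 and 1 comparisons and read in the same way held medians of 17, 16 and 14. Start windows touched by a chosen tile, 112 windows of 95 genes, held a median of 27 CpGs per 300 bases, against 7 in all 32851 windows. CCGG, the site at which the libraries are cut, is its own reverse complement and includes a CpG. It was found in 96.4% of the touched windows and in 52.8% of all windows. All windows are counted whether or not the libraries covered them, so neither contrast is read as a trait of the chosen tiles. Among tiles wholly within a start window, CCGG was found in 96.4% of those chosen, 96.4% of those listed in 1 comparison and 96.6% of all listed. The tiles printed above fall in the range of 5 to 39 CpGs, from 33 at Elovl2 to 6 at Eef1a2.

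Neighbouring tiles mostly moved with the chosen ones, and so did unchosen listed neighbours with each other. Other listed tiles within 500 bp that were not themselves chosen had the same direction in 97.2% of 617 cases in line 1 BrafV600E, 91.1% of 642 in line 3 BrafV600E, 85.6% of 284 in line 1 long culture and 98.9% of 959 in line 3 long culture. Pairs of listed tiles that were not chosen agreed in 94.5%, 90.4%, 90.8% and 97.7%. The chosen tiles had the lower share only in line 1 long culture, and nothing particular to them is read from these shares. Around the tiles with the pattern of Pdzrn3 the shares were 93.5% of 77, 69.8% of 53, 69.2% of 26 and 96.9% of 97. The lower shares thus fell in line 3 BrafV600E and line 1 long culture, the comparisons in which those tiles lost methylation. Chosen tiles were spread over all autosomes, from 12 on chromosome 16 to 52 on chromosome 11, and made up between 0.580% (chromosome 10) and 1.78% (chromosome 13) of the listed tiles of each, against 1.11% in all. The X chromosome had 11 and the Y chromosome 0 of its 20 listed tiles.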

How the data were processed

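The 8 libraries were sequenced after reduced representation bisulfite treatment. The submitters' processing notes name Bismark 0.14.3 (aligner), methylKit 1.7.4 (tile comparison), Trim Galore 0.4.4 and FastQC 0.11.7; no coverage minimum is stated in the sources used here. Per the file headers, the authors deposited a methylation difference in percentage points for each listed 200 bp tile, with its p-value and q-value; gains are positive. Tables of gains and losses were joined on tile position with Python 3.11.15 and pandas 2.3.3, and tiles listed in all 4 comparisons were kept. No test was run on them, since the same values chose them. The members, gene lists and rules were chosen with earlier results of these data known. The join was tested on simulated data. Tiles within 500 bp were joined into regions. Named regions lead their pattern by number of tiles, then by their least mean difference: 12 gaining and 8 losing in all 4, 6 for each pattern with opposite comparisons, and up to 4 for each of the patterns with opposite lines, of which the rule had foreseen only 2. Of the genes with most tiles, the 8 with 3 or more are named, since the next ones tie. The Dgkk, Hoxd11 and Adamts3 regions mix patterns and were placed by their means. List genes are the first 4 of each list by number of tiles. The tiles printed as sequence, the level-range examples, Glra1 and Gjb6 were chosen after their values were seen. Sequences come from the RefSeq start-window table (GRCm38.p6), the only one used here, so tiles outside it have none. Alternatives were a 40-point limit, q under 0.001, joined regions, other gene windows and each line left out.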

Additional observations from a re-analysis of the deposited data

Results flagged for a closer look

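At 87 of the 594 tiles the lines moved opposite ways in both comparisons, so that at each of these tiles lines 1 and 3 had opposite signs in each comparison. The difference between the lines was not tested, since each rests on 1 library against 1 library and the same values chose the tiles. At Podxl2, the one with the largest least difference, the authors' deposited tables give 62.1 points in line 1 and -67.4 in line 3 with BrafV600E, and -85.7 and 90.3 in long culture.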

How the results depend on the processing

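With a limit of 40 points, 46 tiles in 43 regions were listed in all 4 comparisons; 8.70% lost in all 4, 73.9% had the same direction in both lines with BrafV600E, 52.2% had the same direction in both comparisons of line 3, and 32.6% lay within 1 kb of a gene end. With q under 0.001 the counts were 377 tiles in 339 regions; 42.4% gained in all 4, 74.3% had the same direction in both lines with BrafV600E, 66.8% in both comparisons of line 3, and 49.1% lay within 1 kb of a gene end. With tiles joined into regions across tables, 1340 regions were listed in all 4 comparisons and 62.2% had the same direction in both lines with BrafV600E. The share near genes was 58.4% with a window of 2 kb and 81.3% with the whole gene and 1 kb on either side. Annotated start sites alone, a choice made after seeing the data and without chromosome 18, gave 43.5%. Leaving out 1 line asks for only 2 comparisons, so these values describe larger sets: 2384 to 6964 tiles in 2079 to 5462 regions, with 35.5% to 40.0% gaining and 12.0% to 13.3% losing in both, 34.8% to 37.0% near a gene end, and the same direction in both comparisons at 48.9% in line 1 and 51.9% in line 3. The fall in counts with stricter limits follows from fewer listed tiles; the cause of the other shifts was not tested. Of the 42 named regions, 19 were left at 40 points and 31 at q under 0.001, and none of these changed sign. A stricter limit only drops tiles and leaves the value of a kept tile unchanged. A region of 1 tile therefore could not change sign, and nothing is read from this. No paired analysis was possible because no result comes from a test: the tables hold differences already taken within each line, and these values chose the tiles. Depth is unknown, and each comparison has 2 lines, whose values are given side by side.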
